A study of Homo sapiens with 8 samples.

Results

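The 90 genes described here are the microRNA entries of the count tables whose number is below 200, among them MIR148A, the miR-23 and miR-27 pairs, and the miR-26, miR-30 and miR-7 genes. They were chosen by name, as the entries so numbered that are left once a fixed set of others is taken out (miR-15/16, miR-181, miR-146, MIR21, MIR122, MIR150, MIR155 and more). They make up 90 of 1335 microRNA entries and of 2709 features in all. The label "conserved" was not tested, since no other species was examined. Small RNA was sequenced from MEC-1, an established B-cell line from chronic lymphocytic leukaemia, and from the exosomes it sheds into culture supernatant. The 5 exosome libraries and 3 cell libraries carry no treatment or genetic change, and all come from this line, so they describe a single tumour-derived culture. Cells grew in 2-compartment bioreactors in DMEM with calf serum, and the medium was cleared of serum vesicles except in the upper compartment. Vesicles were spun down at 100000 x g with a 20% Optiprep cushion, and 30 ng of RNA below 200 nt entered each library, amplified over 15 PCR cycles. No source used here says that replicates were separate cultures, so a p-value reflects only how these libraries scatter, and that scatter may be technical.

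MicroRNAs are short RNAs cut from a hairpin precursor and loaded into Argonaute proteins, which they guide to messenger RNAs through a seed at bases 2 to 8. Genes with the same seed can repress overlapping targets, and genes set close together on a strand are often cut from a shared primary transcript. Cells export some microRNAs in vesicles, and which ones leave and which ones stay is the question that an exosome to cell comparison addresses.

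Each entry spans a whole hairpin, so its count pools both arms. The sequences below show a single arm per gene, picked by hand (RefSeq, GRCh38.p14), 5′ to 3′ with the seed in capitals. They are shown because the results turn on genes that share a seed or nearly a whole sequence. Mature entries were matched for 83 of the 90 genes.
miR-139-5p: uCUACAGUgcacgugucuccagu
miR-100-5p: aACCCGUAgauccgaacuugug
miR-99a-5p: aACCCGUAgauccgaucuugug
miR-23a-3p: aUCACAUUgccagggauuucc
miR-23b-3p: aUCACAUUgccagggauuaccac
miR-27a-3p: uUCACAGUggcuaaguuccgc
miR-27b-3p: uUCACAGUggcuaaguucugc
miR-140-3p: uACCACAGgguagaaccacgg
miR-33a-5p: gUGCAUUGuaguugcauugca
miR-33b-5p: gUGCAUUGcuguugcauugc
miR-32-5p: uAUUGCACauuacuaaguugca
miR-92b-3p: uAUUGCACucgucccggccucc
miR-98-5p: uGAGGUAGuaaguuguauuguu
miR-148a-3p: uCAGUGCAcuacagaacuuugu
miR-148b-3p: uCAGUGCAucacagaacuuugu
miR-152-3p: uCAGUGCAugacagaacuugg
miR-26a-5p: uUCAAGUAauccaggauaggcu
miR-26b-5p: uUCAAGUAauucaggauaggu
Counted from the 5′ end, miR-99a-5p and miR-100-5p differ at a single base (U16A), miR-23a-3p and miR-23b-3p over their shared length at U19A, and miR-27a-3p and miR-27b-3p at C19U. The arms of miR-33a and miR-33b differ at U9C and A10U, those of miR-148a and miR-148b at C9U and U10C, and those of miR-26a and miR-26b at C11U and C21U.

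Depth, as the sum of all counts, was 23353820 to 32436286 for the exosome samples; the cell samples had 25675636 to 57323598. The 90 genes took 45.4% ± 13.9 (SD, n = 5) of microRNA reads in exosomes and 40.6% ± 17.5 (SD, n = 3) in cells, and 3.37% ± 2.19 and 3.17% ± 0.971 of all reads. A library held reads for 63 to 79 of them. MIR148A, known in B cells for a part in immune tolerance, was the most abundant in all 8 libraries and took 48.8% to 90.5% of their reads in exosomes and 57.8% to 89.8% in cells. Without MIR148A the share of microRNA reads was 16.004% ± 2.73 in exosomes and 14.3% ± 0.994 in cells. The plot of shares shows that the total follows this gene.

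**Figure D1:**
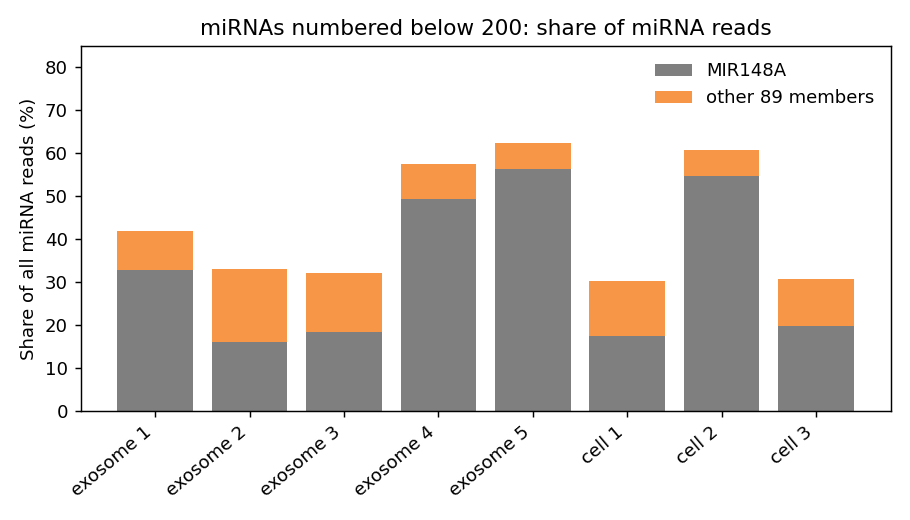
Stacked bars give the share of all microRNA reads (%) in each of 8 libraries that fell on MIR148A (grey) and on the other 89 genes (orange). The total ranges from 30.2% in cell 1 to 62.3% in exosome 5 and is high where the MIR148A part is high.

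MIR148A itself (chromosome 7, 25989539 to 25989606, GRCh37, outside other genes in GENCODE 29) did not separate the groups. In exosome libraries 1 to 5 it stood at 27512, 4601, 7515, 38959.8 and 53761 CPM (counts scaled to library size with TMM factors, which adjust library totals for differences in composition). In cell libraries 1 to 3 it stood at 14999, 61557 and 14555 CPM. With these factors the highest value was in a cell library and the lowest in an exosome library. By plain share of total counts exosome 4 was highest (1328120 of 23353820, against 1850300 of 54461350 in cell 2). The spread within each group was far larger than the difference between the means (log2 fold change, exosome over cell, -0.20, SE 0.73, adjusted p = 0.852 by edgeR's quasi-likelihood test). The genes with the same seed, MIR148B (0.23) and MIR152 (0.56), were not called either, with adjusted p of 0.775 and 0.461 in the same edgeR fit.

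Of the 90 genes, 64 passed the filter on low counts and were tested, and 26 were not. In edgeR's test, fitted and adjusted over all 1178 features that passed, 4 were higher in exosomes, 3 were lower and 57 were not called at an adjusted p under 0.05. Of all features tested, 20.7% were called higher, 22.3% lower and 43% in either direction. Of all 333 microRNAs tested, 41 were higher and 26 lower. When microRNAs were fitted alone, the same 4 genes were called higher and MIR33A lower, where 9.86% and 3.56% of all microRNAs were called. The median log2 fold change was -0.14 over the 64 genes, 0.01 over microRNAs and -0.09 over all features. With scaling by total counts the median over the 64 genes was 0.18 and that over all features 0.19. Single genes moved unevenly with this scaling, MIR100 from 3.13 to 3.08 and MIR139 from 3.27 to 3.74. The genes called higher were MIR139, MIR100, MIR23A and MIR140, and those called lower were MIR33A, MIR32 and MIR98. Among the 64 tested, TMM-scaled exosome values lay above every cell value for 5 genes (the 4 called and MIR185) and below for MIR33A. Of all features, 21.6% and 20.1% did so. For MIR23A, MIR140 and MIR185 the separation depended on this scaling. Exosome 5 had fewer reads of each than cell 1 (828 against 929, 3012 against 4898 and 392 against 671), though its total was larger (27316077 against 25675636).

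**Figure D2:**
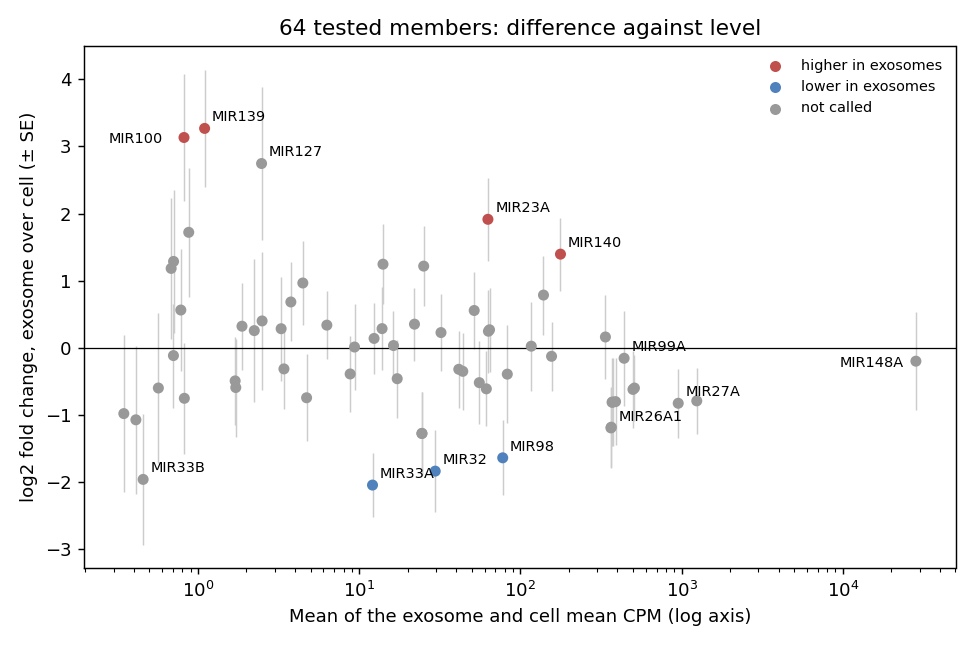
Each point is a tested gene, with its mean level in CPM (mean of both group means, log axis) against its log2 fold change, exosome over cell, with SE bars. The 4 red points are higher and the 3 blue points lower in exosomes, MIR139 and MIR100 lie near 1 CPM and MIR148A lies alone at the right near a difference of 0.

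MIR33A had the clearest fall. It lies in an intron of SREBF2 (chromosome 22, 42296948 to 42297016, GRCh37, plus strand), the gene of a master regulator of cholesterol synthesis, and miR-33a is known to repress the cholesterol exporter ABCA1. Its exosome values were 5.55, 3.94, 3.59, 4.90 and 5.66 CPM and its cell values 26.6, 13.4 and 18.5 CPM. With TMM factors the groups did not overlap, and the exosome libraries lay close together. By plain share of total counts the groups stayed apart, but exosome 4 (167 of 23353820) lay only just below cell 2 (402 of 54461350). Exosome 5 (81 of 27316077) then lay well below exosome 4. Since CPM is a share of a library's reads, a smaller share and less RNA per vesicle or cell cannot be told apart. The means were 4.73 ± 0.936 and 19.5 ± 6.66 CPM (log2 -2.04, SE 0.48, adjusted p = 0.00287 by edgeR). The call held under all 20 alternative settings tried, with log2 values from -2.41 to -1.62 and edgeR, DESeq2 or limma adjusted p from 0.000194 to 0.027. MIR33B, which shares the seed and lies in an intron of the paralogue SREBF1, had a like fold change at far lower counts (log2 -1.96, SE 0.97) and was not called (edgeR adjusted p = 0.114). Its values ran from 0 to 0.368 CPM in exosomes and were 0.329, 1.53 and 0.347 CPM in cells. Only cell 2 lay above the exosome range, while for MIR33A cell 2 was the lowest cell library. The MIR33B log2 value ran from -2.36 to -0.94 with 1 library left out.

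MIR32 and MIR98 fell as well, each against 2 of the 3 cell libraries. MIR32 lies in an intron of TMEM245 (chromosome 9, 111808509 to 111808578, minus strand), and miR-32 is known to target the pro-apoptotic gene BCL2L11. It stood at 13.2, 9.98, 17.8, 15.5 and 8.39 CPM in exosomes and at 81.7, 8.82 and 48.5 CPM in cells. Cell 2 lay within the exosome range, and the other cell libraries lay well above it (log2 -1.84, SE 0.61, adjusted p = 0.023 by edgeR). MIR98 lies in an intron of HUWE1 (chromosome X, 53583184 to 53583302, minus strand) and carries the let-7 seed, GAGGUAG, of a family linked to differentiation. Its values were 43.6, 38.4, 43.8, 36.3 and 26.99 CPM in exosomes and 162, 30.7 and 160 CPM in cells, again with cell 2 among the exosome libraries (log2 -1.64, SE 0.56, edgeR adjusted p = 0.0261). The MIR32 call was lost in 11 of 20 settings and the MIR98 call in 13. MIR32 was at -1.27 without cell 1, -1.56 without cell 3 and -2.45 without cell 2, and MIR98 at -1.46, -1.09 and -2.19. With microRNAs fitted alone, neither passed (edgeR adjusted p = 0.098 and 0.114).

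MIR139 and MIR100 rose from very low levels. MIR139 lies in an intron of PDE2A (chromosome 11, 72326107 to 72326174, minus strand), and miR-139-5p is known as a growth-restraining microRNA in several carcinomas. It had 54, 73, 150, 73 and 12 reads in exosomes and 2, 3 and 23 in cells, or 1.66, 2.08, 3.29, 2.14 and 0.839 CPM against 0.0549, 0.0998 and 0.443 CPM. Every exosome library lay above every cell library, and cell 3 carried most of the cell reads. The means were 2.00 ± 0.887 and 0.199 ± 0.212 CPM (log2 3.27, SE 0.87, adjusted p = 0.00645 by edgeR). The call held in all 20 settings, and the value was 4.99 without cell 3.

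MIR100 lies in an intron of MIR100HG (chromosome 11, 122022937 to 122023016, minus strand), and miR-100 and miR-99a are known repressors of mTOR. It stood at 0.890, 1.37, 2.67, 0.352 and 2.10 CPM in exosomes and at 0.302, 0.0333 and 0.154 CPM in cells, where it had 11, 1 and 8 reads. The groups did not overlap, though exosome 4 lay just above cell 1 (log2 3.13, SE 0.95, edgeR adjusted p = 0.0139). The call was lost without cell 2 (log2 2.55, edgeR adjusted p = 0.0581), and the value was 3.75 without cell 1. Its near-identical relative MIR99A (chromosome 21, 17911409 to 17911489, in an intron of MIR99AHG) was far more abundant, at 96.3, 416, 710.5, 721 and 139 CPM in exosomes and 925, 276 and 191 CPM in cells, and was not called (log2 -0.15, SE 0.71, edgeR adjusted p = 0.88). Reads of MIR100 per 100 reads of MIR99A were 0.924, 0.329, 0.376, 0.0488 and 1.51 in exosomes and 0.0326, 0.0121 and 0.0809 in cells. On this ratio exosome 4 fell among the cell libraries. Whether reads of one were counted at the other was not tested.

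MIR23A was called higher, and MIR27A next to it, MIR23B and MIR27B were not called. MIR23A and MIR27A lie 70 nt apart on chromosome 19 (13947401 to 13947473 and 13947254 to 13947331, minus strand, both over exons of AC020916.1) and are known to come from a shared primary transcript. miR-23a and miR-27a act in lymphocyte and myeloid differentiation. The list of the miR-23, miR-27 and miR-24 clusters held 6 genes, of which 4 were present. The miR-24 genes have no entry in the deposited counts under the listed names, so neither cluster is complete here. MIR23A stood at 71.0, 121.5, 70.5, 176.5 and 57.9 CPM in exosomes and at 25.5, 12.8 and 40.8 CPM in cells. With TMM factors its lowest exosome value was above its highest cell value (means 99.5 ± 49.5 and 26.4 ± 14.0 CPM, log2 1.91, SE 0.61, adjusted p = 0.0194 by edgeR). MIR27A stood at 686, 372, 966, 930 and 487 CPM in exosomes and at 1436, 683 and 1539 CPM in cells, where exosomes 1, 3 and 4 lay above cell 2 (log2 -0.83, SE 0.52, edgeR adjusted p = 0.215, not called). The MIR23A call was lost without cell 1 (log2 1.78) or cell 2 (1.51) and with the replicate block (1.87), with edgeR adjusted p of 0.0793, 0.0811 and 0.0758, and the value was 2.69 without cell 3.

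The ratio of the neighbours within a library does not depend on scaling between libraries. There were 10.4, 32.7, 7.29, 19.0 and 11.9 reads of MIR23A per 100 of MIR27A in exosomes and 1.78, 1.88 and 2.65 in cells. The paralogous pair, MIR23B and MIR27B (chromosome 9, 97847490 to 97847586 and 97847727 to 97847823, plus strand, in introns of C9orf3), gave 7.34, 23.4, 12.9, 20.7 and 6.11 reads per 100 in exosomes and 4.74, 4.85 and 5.70 in cells. In both pairs every exosome library was above every cell library. Of 7 pairs of tested genes within 10000 nt on a strand, a set drawn up after the values were seen, these were the 2 that separated. The exact permutation test on the log2 ratio, two-sided, gave p = 0.0357 for each, the lowest value possible with these group sizes, or 0.125 after Benjamini-Hochberg adjustment over the 7 pairs. The log2 ratio of MIR27A to MIR23A was 2.83 ± 0.839 in exosomes and 5.60 ± 0.315 in cells, and that of MIR23B to MIR27B was -3.02 ± 0.866 and -4.30 ± 0.145. With any single library left out, the difference for MIR27A to MIR23A stayed between -3.01 and -2.47 and that for MIR23B to MIR27B between 1.04 and 1.53. By level, MIR23B was not called (14.2, 18.5, 15.6, 41.2 and 9.44 CPM in exosomes, 9.79, 4.89 and 10.3 in cells, log2 1.25, edgeR adjusted p = 0.104), nor was MIR27B (log2 -0.13, edgeR adjusted p = 0.865).

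**Figure D3:**
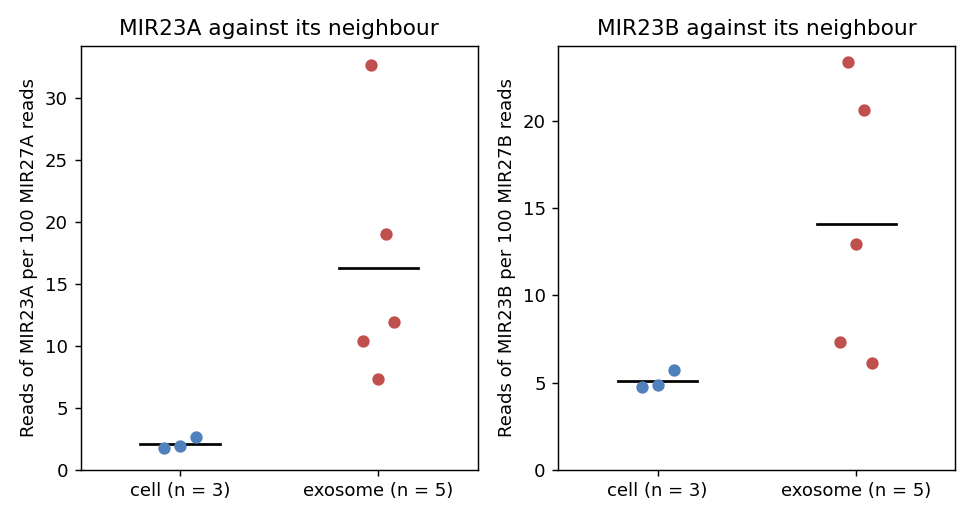
Reads of MIR23A per 100 reads of MIR27A (left) and of MIR23B per 100 of MIR27B (right), 1 point per library, bars at the mean, axes from 0. Cell libraries lie between 1.78 and 2.65 on the left and between 4.74 and 5.70 on the right, below every exosome library.

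MIR140, in an intron of WWP2 (chromosome 16, 69966984 to 69967083, plus strand) and best known from cartilage, was the most abundant gene that rose. Its values were 280.7, 142.7, 256.4, 394.9 and 210.6 CPM in exosomes and 134, 70.4 and 88.3 CPM in cells. With TMM factors the lowest exosome value was only just above the highest cell value (means 257 ± 93.3 and 97.7 ± 32.9999 CPM, log2 1.40, SE 0.54, edgeR adjusted p = 0.0474). The call was lost in 9 of 20 settings, with scaling by total counts (1.58), without exosome 1 (1.37) or exosome 5 (1.48), and without any 1 cell library (1.59, 1.08 and 1.63 without cells 1, 2 and 3). It was also lost on libraries 1 to 3 of each group, with the replicate block (1.26) and without it (1.27), and without exosome 5 and cell 2 together (1.19). MIR185, not called, also had all TMM-scaled exosome values (22.9 to 56.6 CPM) above the cell values (6.09 to 20.9 CPM). Its log2 fold change was 1.22 (SE 0.59, edgeR adjusted p = 0.107).

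**Figure D4:**
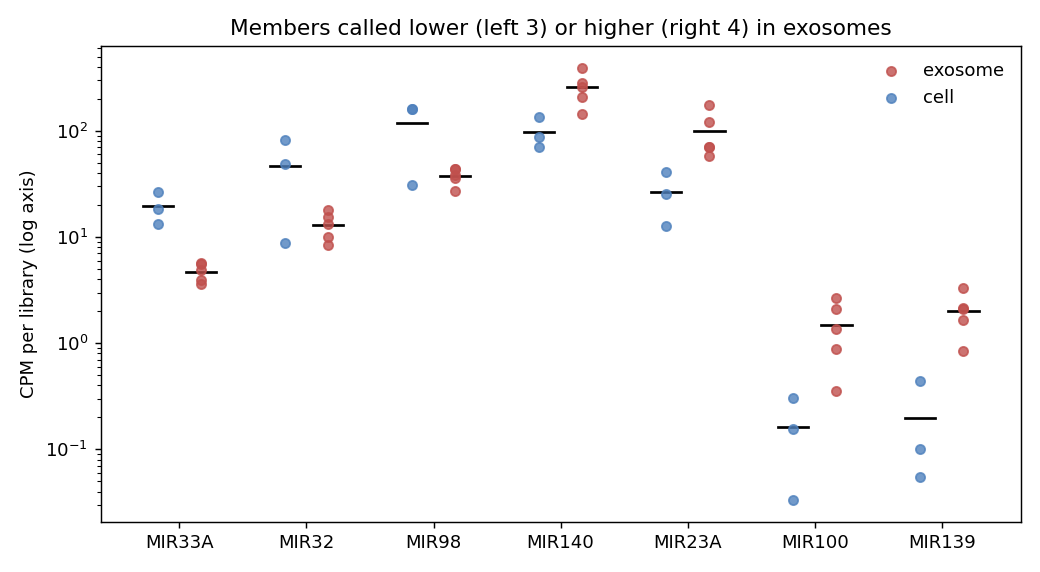
CPM in each library (log axis) of the 3 genes called lower and the 4 called higher in exosomes, with cells in blue, exosomes in red and bars at the group mean. For MIR32 and MIR98 the lowest cell point, cell 2, lies among the exosome points. In these TMM-scaled values the groups of MIR33A, MIR140, MIR23A, MIR100 and MIR139 are apart.

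Several abundant families had no gene called. The miR-26 genes, seated in introns of the CTDSP phosphatase genes and known to restrain EZH2, had 0 of 3 called. MIR26A1 stood at 271, 271, 245, 160 and 162 CPM in exosomes and at 643, 91.4 and 788 CPM in cells. Cells 1 and 3 were above every exosome library and cell 2 below every one (log2 -1.19, SE 0.60, edgeR adjusted p = 0.116). It was called lower without cell 2 (log2 -1.77, edgeR adjusted p = 0.0131). MIR26B, which shares the seed, was level between the groups (118 ± 47.2 and 116 ± 87.5 CPM, log2 0.03). Its reads per 100 of MIR26A1 were 30.7 to 107.7 in exosomes and 17.8 to 23.4 in cells. This pair was picked by hand and its ratio was not tested.

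The miR-30 family, which acts on the plasma-cell regulator PRDM1, had 0 of 6 called. MIR30D, the most abundant, had means of 911 ± 264 CPM over exosome libraries and 1574 ± 679 CPM over cell libraries (log2 -0.79, SE 0.49, edgeR adjusted p = 0.215). MIR30E was at -0.60, MIR30C1 at -0.61, MIR30A at 0.14 and MIR30B at 0.29. Within the family MIR30C1 ranged from 22.9 CPM in cell 2 to 101 in cell 1, and MIR30E was highest in cell 2, at 749 CPM.

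The miR-7 genes, whose microRNA is known to bind the circular RNA CDR1as and to repress EGFR, had 0 of 3 called. MIR7-1 stood at 533, 229, 68.8, 156 and 434 CPM in exosomes and 580, 731 and 174 CPM in cells (log2 -0.80, SE 0.65, edgeR adjusted p = 0.346). The 3 genes had nearly the same counts in every library, with the largest 1.03 to 1.07 times the smallest, so they are not independent. The same held for MIR26A1 and MIR26A2 (up to 1.02 times), MIR9-1 and MIR9-3 (up to 1.00), MIR103A1 and MIR103A2 (up to 1.03) and MIR101-1 and MIR101-2 (up to 1.07). By contrast MIR30C1 held up to 1.85 times the reads of MIR30C2 and MIR125B2 1.84 to 6.23 times those of MIR125B1. By mature sequence or name, 29 of the 90 genes fall into 14 such sets of copies.

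Among the other families, none of the 3 genes of miR-103 and its relative MIR107, of introns of the pantothenate kinase genes, was called, with MIR103A2 at 0.27 and MIR107 at 0.97. Of the miR-10, miR-99, miR-100 and miR-125 genes, 7 met the rule, 5 were tested and 1 was called, MIR100. MIR125B2, which shares a host gene with MIR99A, followed it at 2.15 to 3.01 reads per 100 in exosomes and 1.71 to 2.86 in cells, although MIR99A itself ranged from 96.3 to 925 CPM. None of the miR-183 cluster (MIR183, MIR96, MIR182), a sensory and epithelial unit, was called. MIR19B2, the only gene of the miR-17 lists here, was at -0.39 (edgeR adjusted p = 0.619). MIR191, abundant in blood cells, ran from 257 to 630.3 CPM in exosomes and from 73.6 to 617 in cells (log2 0.16), and MIR186 was at 0.79. MIR132 was at 0.32, none of the 5 genes listed with their hosts (MIR28, MIR151A, MIR193A, MIR193B and MIR152) was called, and the miR-101 and miR-196 genes had 0 of 2 called each. Of 9 tested genes of the blood and B cell list, 1 was called, MIR140. The miR-29, miR-144, miR-145 and miR-194 lists could not be analysed. The rule takes out none of their genes, but the deposited counts hold no entry under those names. Listed genes such as MIR17, MIR22 and MIR142 lack an entry as well. All of these lists were drawn up with earlier results of these data known.

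Some genes that mark other tissues were at 0 and others were not. MIR31, of epithelium and stroma, MIR124-2 and MIR124-3, of neurons, and MIR105-1 and MIR105-2, of the testis or placenta list, had 0 reads in all 8 libraries, as had MIR34B, MIR34C, MIR154 and MIR23C, which are on no marker list. A count of 0 allows up to 3 reads, for counting error only. By plain total counts, without TMM factors, that is 0.128 CPM in the smallest library and 0.0523 in the largest. With TMM factors 1 read alone stood for 0.0699 CPM in exosome 5 and 0.0293 in exosome 4, the smallest by total. The plain-total limits therefore cannot be set beside the TMM-scaled values given here. The 3 muscle genes that met the rule summed to 0.0570 to 1.68 CPM in exosomes and 0 to 0.0964 CPM in cells. MIR1-1, the defining one, had 7, 2, 17, 2 and 24 reads in exosomes and 2, 0 and 3 in cells, and was too low for the filter. Of 11 neural genes, 7 were tested and none was called, and their sum was 18.3 to 58.7 CPM in exosomes and 53.6 to 95.0 CPM in cells. Among them the copies MIR9-1 (14.3 ± 10.02 and 34.7 ± 11.1 CPM, log2 -1.28, edgeR adjusted p = 0.106) and MIR9-3 had the highest group means. Of 8 epithelial genes, 6 were tested and none was called, and their sum was 7.10 to 18.9 CPM in exosomes and 6.79 to 14.5 CPM in cells. Of the 3 testis or placenta genes MIR184 alone was tested, and it was not called. Of 7 stromal genes, 6 were tested and 1 was called, MIR100, with MIR31 at 0, and their sum, in which MIR99A had the largest level in every library, was 125.7 to 756 CPM in exosomes and 217 to 957 CPM in cells. Whether RNA of other cells or of the medium had a part in the MIR100 result was not tested.

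The 4 genes of the imprinted 14q32 region that met the rule, MIR127, MIR134, MIR136 and MIR154, had none called. MIR127, known for its target RTL1, had 61, 209, 321, 16 and 89 reads in exosomes and 2, 56 and 2 in cells. It missed the threshold (log2 2.75, SE 1.15, edgeR adjusted p = 0.0633). Cell 2 (1.86 CPM) was level with exosome 1 (1.87 CPM) and well above exosome 4 (0.469 CPM). It was called higher in 13 of 20 alternative settings. MIR136 (57 reads over all exosome libraries, 2 over cells) and MIR134 (16, none of them in exosomes 1 and 5, and 0) were too low for the filter, and MIR154 had 0 reads. Of the 26 genes not tested, 9 had 0 reads and the other 17 had at most 38 in any library. MIR196B, of the HOXA cluster, had 1 read over exosomes and 14 over cells, and MIR149 had 9 and 28.

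Cell 2 and exosome 5 departed from the other libraries of their groups, and many of the same genes were low or high in both. The measure is the difference in log2(CPM + 0.5) between that library and the mean of the others of its group, over the 38 genes whose 2 group means added to more than 20 CPM. In cell 2, 15 genes were lower by over 1 and 7 higher by over 1. MIR26B (-3.30), MIR26A1 (-2.95), MIR30C2 (-2.85), MIR32 (-2.77), MIR191 (-2.45) and MIR98 (-2.37) were lowest, and MIR193B (3.26), MIR148A (2.06) and MIR92B (1.70) highest. In exosome 5, MIR148A was highest (1.95) and MIR30B (-2.49), MIR9-1 (-1.90), MIR99A (-1.44) and MIR26B (-1.39) lowest. Both departures were under -0.5 for 14 genes and over 0.5 for 7. Across the 38 genes, Pearson's r was 0.62 and Spearman's rho 0.65 (0.62 and 0.65 over 31 with copies counted once). The genes share libraries and scaling, and are not replicates. These libraries were singled out after their values were seen. TMM factors raised every value in both. A single read stood for 0.0699 CPM in exosome 5 and 0.0293 in exosome 4, whose total was smaller. It stood for 0.0333 CPM in cell 2 and 0.0193 in cell 3, whose totals were 54461350 and 57323598. The counts of genes beyond a limit shift with this scaling, and its part in them was not tested.

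Some genes with the same seed departed alike in cell 2 and others did not. MIR26A1 (-2.95) and MIR26B (-3.30) were low together, as were MIR23A (-1.30) and MIR23B (-0.97), and MIR27A (-1.12) and MIR27B (-0.94). In contrast MIR148A was at 2.06, MIR148B at -0.09 and MIR152 at -1.32. MIR32 was at -2.77 and MIR92B, which has the same seed, at 1.70, and reads of MIR32 per 100 of MIR92B were 794 and 399 in cells 1 and 3, 23.6 in cell 2 and 37.7 to 194 in exosomes. In the miR-30 family MIR30C1 was at -2.10 and MIR30E at 0.53. Both libraries entered the fit. Without them together, the genes called lower were MIR33A, MIR32, MIR98, MIR26A1 and MIR26A2, and those called higher MIR139, MIR100, MIR23A, MIR127 and MIR136. MIR148A took 89.8% of the reads of these genes in cell 2 and 90.5% in exosome 5, and the part this had in the other values was not tested.

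**Figure D5:**
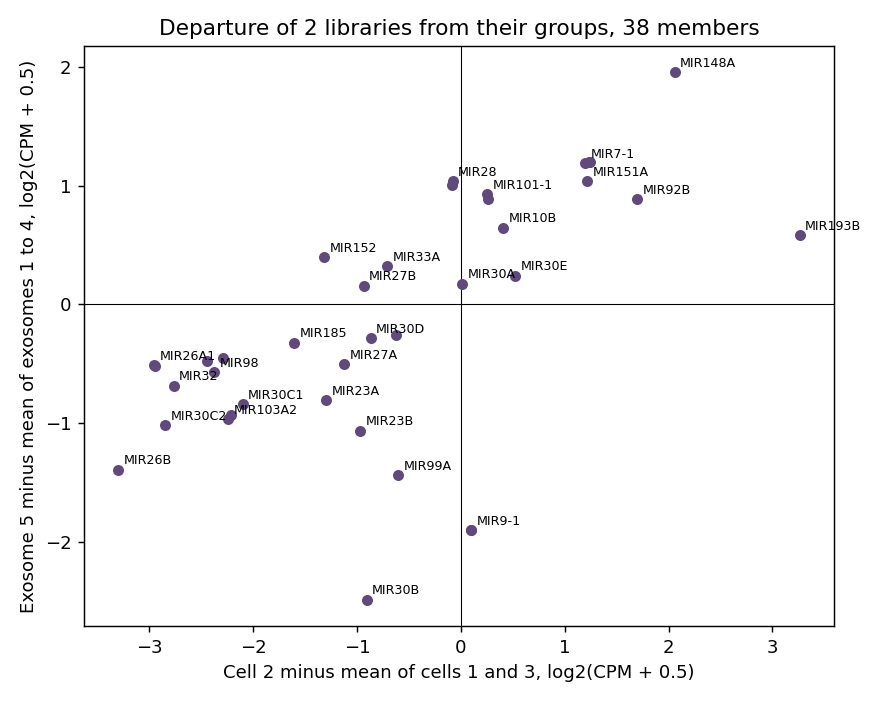
Each point is 1 of 38 genes, with its departure in cell 2 from the mean of cells 1 and 3 (x axis) and in exosome 5 from the mean of exosomes 1 to 4 (y axis), both in log2(CPM + 0.5). MIR148A lies at the top right (2.06 and 1.95) and MIR26B at the lower left (-3.30 and -1.39), while MIR9-1 and MIR30B are low in exosome 5 (-1.90 and -2.49) with cell 2 values of 0.10 and -0.91.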

How the data were processed

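Small RNA libraries of MEC-1 exosomes (n = 5) and cells (n = 3) were grouped by their titles. Per the file headers, the authors deposited unnormalized read counts for each feature. Tools listed in the submitters' processing notes are cutadapt 1.1, STAR, featureCounts and DESeq2 1.8.2, with the build GRCh37. How reads that map to several copies were counted is not given in the sources used here. The protocols mention no molecular identifiers, so floors cover counting error only.

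The rule names MIR15*, read here as MIR15A and MIR15B because MIR150 and MIR155 are listed apart. A literal wildcard would drop 6 more (MIR151A, MIR151B, MIR152, MIR153-1, MIR153-2, MIR154), leaving 84. Members and lists were chosen with earlier results of these data known.

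Counts were tested with edgeR 4.0.16's quasi-likelihood test (R 4.3.3), TMM factors, the default low-count filter (minimum count 10), with p-values adjusted by Benjamini-Hochberg over every tested feature, and the script was checked on simulated data. The SE is the size of the log2 fold change divided by the square root of F. Alternatives used DESeq2 1.42.0 and limma 3.58.1. Ratios used scipy 1.17.1's exact permutation test. Host genes are from GENCODE 29 (GRCh38); printed coordinates are those of the files. Named were all called genes, the 15 most abundant, up to 4 per list and any tested gene at 0 in every library of a group; further genes (MIR127, MIR136, MIR134, MIR196B, MIR149, MIR1-1, MIR185, MIR92B, MIR9-1, MIR9-3, MIR30A, MIR30B, MIR184, MIR193A and those at 0) were named after their values were seen.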

Additional observations from a re-analysis of the deposited data

Results flagged for a closer look

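Among 45 named genes, 5 had a single exosome library set apart from the other 4, by a gap larger than Dixon's 95% limit for 5 values. Chance flags about 1 group in 20. MIR191 was at 630.3 CPM in exosome 1, with the others between 257 and 333 CPM. In exosome 4, MIR23B was at 41.2 CPM (others 9.44 to 18.5) and MIR107 at 10.3 CPM (others 3.99 to 5.59). In exosome 5, MIR183 was at 6.85 CPM (others 1.83 to 2.54) and MIR96, of the same cluster, at 2.94 CPM (others 0.314 to 0.706). MIR182, also of that cluster, was at 9.09 CPM there and at 4.17 to 8.19 CPM in the other exosome libraries.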

How the results depend on the processing

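MIR33A and MIR139 were called in all 20 settings tried, and no called gene changed direction in any. The count of genes higher in exosomes was 4, and 7 with DESeq2 or without the low-count filter, which added MIR127, MIR136 and MIR1-1; it ran from 2 to 5 with 1 library left out. The count of genes lower was 3, and 1 with limma-voom, with total count scaling, at 50 counts in 3 libraries and with microRNAs alone, where MIR33A was the gene left. It ran from 1 to 5 with 1 library left out, and was 5 without exosome 5 and cell 2 together, an alternative chosen after seeing the data. At 50 counts in 3 libraries 6 were higher, with MIR23B, MIR127 and MIR185 gained and MIR100 not tested; MIR23B stood at 1.64 (adjusted p = 0.031 by edgeR). Without cell 2, MIR26A2 was called lower (-1.76, edgeR adjusted p = 0.0136). Over 896 pairs of a named gene and an alternative, 93 changed sign, all in genes called in neither fit. The cause of these losses was not tested.

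The study's design text pairs 3 exosome with 3 cell samples without naming them, and the main fit has no pairing term. Exosome and cell libraries 1 to 3 were matched here by number alone, and their deviations correlated at 0.10, -0.03 and 0.06. These values cannot tell whether or how the libraries were paired, since the true pairs are not named. With the replicate block on these 6 libraries, 3 genes were higher and 1 lower, and without the pairing term 4 and 1. The share of microRNA reads differed by 4.77 percentage points (exosome minus cell), and by -0.43 to 14.9 with 1 library left out. Depth limits MIR139 and MIR100, with 1 to 23 reads per cell library.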
